A study of Mus musculus with 24 samples.

Results

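Immunoglobulin kappa variable (V) segments are the gene pieces that encode the variable end of the kappa light chain. In the mouse they are named Igkv, then a family number, then a number for the place of the segment in the locus, as in Igkv4-92. All rows of the RNA-seq table whose name starts with Igkv were taken, 97 of 14106. The libraries came from B lymphocytes of mouse spleen that were cultured with IL4 and LPS, which activate them, for 28 h and then held for 32 h more with 2 µM 4-hydroxytamoxifen, 60 h in all. In 3 libraries, called Spt5-depleted here, the cells were Supt5hFl/- Rosa26ERT2-cre/+: they carried 1 floxed and 1 null allele of the gene for the transcription elongation factor Spt5 and a Cre recombinase that the drug activates. Cells of the 3 control libraries, named WT here, were Rosa26ERT2-cre/+ and received the same drug. Both groups therefore share the recombinase and the drug, and the null allele is in the depleted cells only, so its effect and that of the induced deletion cannot be told apart. No ages are stated in the labels. Whether each library stands for its own animal is not stated either, so every p-value refers to the spread among libraries, which could be technical. The maturity of the cells is labelled in 2 ways, as mature and as immature.

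A B cell makes its kappa chain by joining 1 of many V segments to 1 of a few joining (J) segments. The joined VJ exon is spliced to the single constant exon, Igkc, so each finished kappa mRNA holds 1 V segment and the constant region. Each cell as a rule keeps 1 productive light chain. The share of each V segment in the RNA of a culture thus reflects how many cells use it and how much kappa mRNA each of them holds, which cannot be told apart in bulk RNA. Transcripts of V segments that were never joined are counted in the same rows. Members of a V family resemble one another in sequence, so reads can be split between them in ways the counting does not resolve, and the sums over a family are given beside the single rows for that reason.

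Libraries held 23340978 to 25649611 counts in WT and 17306549 to 21441575 counts in Spt5-depleted cells. The targeted gene, Supt5, gave 3796, 3512 and 4666 counts in WT and 189, 196 and 314 counts in depleted libraries, 15.3-fold lower (edgeR quasi-likelihood test, adjusted p = 1.26e-10). The groups also differed in Xist, an RNA of the inactive X chromosome, with 14844, 20130 and 11367 counts in WT and 18, 28 and 40 counts in depleted libraries. The Y-linked gene Ddx3y had 1, 0 and 0 counts in WT and 704, 846 and 1019 counts in depleted libraries. This is the pattern of female cells in WT and of male cells in the depleted group. It follows the groups in every library, so effects of sex and of depletion cannot be told apart in the results below. WT replicate 2 stood apart in its immunoglobulin RNA. All immunoglobulin rows together took 3.14%, 5.74% and 3.88% of the counts in the WT libraries and 2.80%, 2.57% and 2.95% in the depleted libraries. The B cell markers Cd79a, Cd79b, Ms4a1 and Pax5 were present at group means of 578 CPM or more (CPM, library-scaled counts after TMM normalisation, a scaling that takes most genes as unchanged) and did not pass the test. Cd22, a receptor of the B cell surface, fell by 1.48 on the log2 scale.

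With all 6 libraries and TMM scaling, kappa V RNA as a whole fell, relative to other genes, by nearly the same factor as the kappa constant region. Of all tested rows 62.4% were called in one direction or the other, although TMM takes most genes as unchanged. Such counts do not give amounts per cell. The summed Igkv rows stood at 4275, 6846 and 4303 CPM in the WT libraries and at 4014, 3749 and 3864 CPM in the depleted libraries. Every depleted library lay below every WT library, though WT replicates 1 and 3 were within a short distance of depleted replicate 1 and WT replicate 2 was far above the rest. The means were 5141 ± 1476 CPM and 3876 ± 133 CPM (SD, n = 3 each), 1.33-fold lower in depleted cells, with a log2 fold change of -0.41 ± 0.16 (SE, edgeR adjusted p = 0.0454). Among all rows of the table with that sum, 30.7% were called lower. Igkc, which encodes the constant region of every kappa chain, stood at 6123, 9248 and 6390 CPM in WT and at 5996, 5098 and 5241 CPM in depleted libraries, with a log2 fold change of -0.41 ± 0.14 (edgeR adjusted p = 0.0242). The groups did not overlap for Igkc either, and WT replicate 2 was again the highest.

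The fall of the summed Igkv rows rested on single libraries and on the scaling. Without WT replicate 2 the log2 fold change was -0.15 (edgeR adjusted p = 0.195). With library totals alone in place of TMM it was -0.24 (adjusted p = 0.211), a scaling that moved the median of all tested genes to 0.16. With both changes together it was 0.013 (adjusted p = 0.902). The size held without depleted replicate 1, 2 or 3, at -0.43, -0.38 and -0.40, and the call did not (adjusted p = 0.0983, 0.110 and 0.124). DESeq2's Wald test gave -0.41 (adjusted p = 0.128). Igkc likewise was at -0.21 without WT replicate 2 (adjusted p = 0.117), at -0.26 with library totals (adjusted p = 0.131), and at -0.37 and -0.38 without depleted replicate 2 or 3 (adjusted p = 0.0933 and 0.102). As plain shares of a library, Igkv rows took 0.406%, 0.643% and 0.407% in WT and 0.416%, 0.397% and 0.417% in depleted cells, and the groups overlapped.

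The ratio of Igkv to Igkc counts within a library needs no scaling. It was 0.698, 0.737 and 0.673 in WT and 0.670, 0.737 and 0.738 in depleted libraries. The lowest value and the highest were both in the depleted group, and the groups overlapped throughout. The means were 0.703 ± 0.032 and 0.715 ± 0.039 (SD, n = 3 each), and the log2 ratio differed by 0.025 between groups (exact permutation test over the 20 splits, two-sided, p = 0.9, and 0.9 after adjustment over 4 ratios). With 3 libraries against 3, such a test cannot go below 0.1. No shift of the V segments against the constant region was detectable with these libraries.

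**Figure D1:**
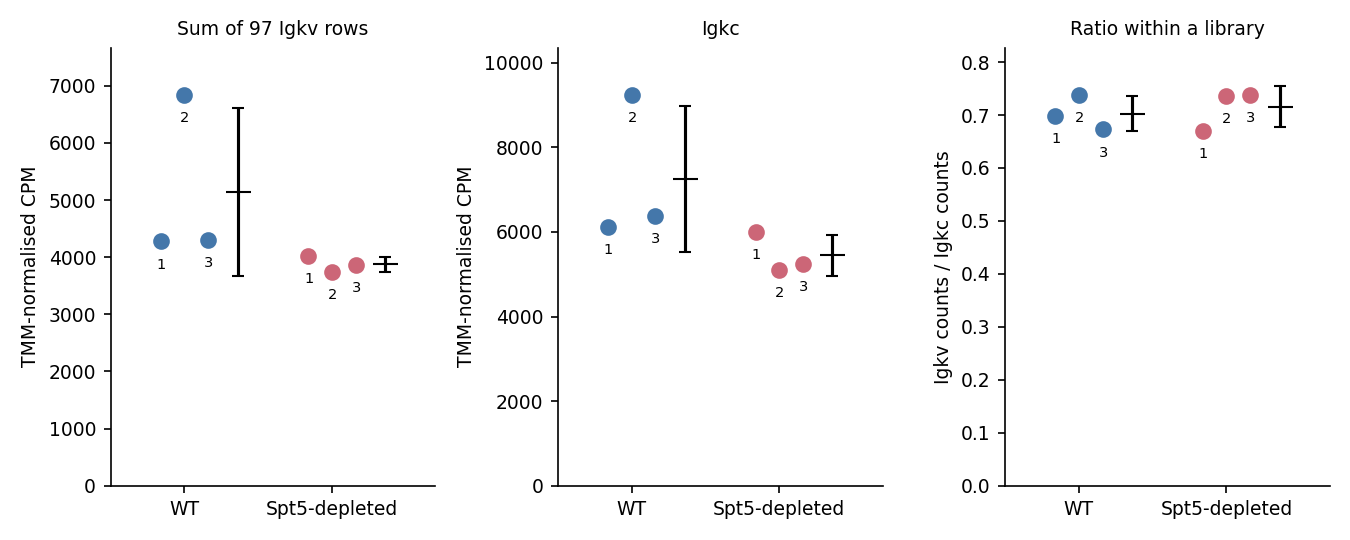
Sum of the 97 Igkv rows (left, TMM-normalised CPM), Igkc (middle, TMM-normalised CPM) and the ratio of their counts (right) in each library. Points are libraries with their replicate number, and bars are the mean ± SD of 3 libraries; WT replicate 2 stands at 6846 CPM on the left, and the ratios of both groups lie between 0.670 and 0.738.

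With all 6 libraries, every single V segment that passed the test was lower in depleted cells. Of the 97 rows, 93 had enough counts to be tested, and 53 of these (57.0%) were lower in depleted cells at an adjusted p under 0.05, beside 30.6% of all 12024 tested rows (62.4% of these were called in one direction or the other). No row was called higher by edgeR, and 0 were higher at an unadjusted p under 0.05, beside 31.8% of all tested rows called higher. The authors' deposited table, from another test, gave 50 Igkv rows lower and 0 higher at the same threshold. In 56 tested rows every depleted library lay below every WT library, and in 0 above, beside 33.3% and 34.2% of all tested rows. The median log2 fold change of the 93 rows was -0.62, against 0.005 for all tested rows, and 88 of them were below 0. They ranged from -1.67 for Igkv4-92 to 0.51 for Igkv18-36, which did not pass the test. The 4 untested rows, with too few counts for the filter, were Igkv4-78, Igkv8-26, Igkv8-16 and Igkv1-35. Without WT replicate 2, 43 rows were called lower, all of them among the 53, the median was -0.37 and 77 of 93 rows were below 0. In that fit 1 row, Igkv10-94, was called higher (log2 fold change 0.41, adjusted p = 0.009996), and 28.6% of all tested rows were called lower and 29.8% higher.

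The 10 most abundant rows held 51.7%, 53.1% and 52.1% of Igkv counts in WT and 56.7%, 56.1% and 55.9% in depleted libraries, so the larger share was in the depleted cells in every library. Most of these rows did not pass the test. Igkv10-96, the most abundant, stood at 535, 768 and 505 CPM in WT and at 539, 475 and 515 CPM in depleted libraries. The groups overlapped, and the log2 fold change was -0.24 ± 0.14 (SE, adjusted p = 0.149). Igkv1-135 followed with 350, 669 and 380 CPM in WT and 369, 357 and 360 CPM in depleted libraries. All 3 depleted libraries lay between WT replicates 1 and 3, and WT replicate 2 was far above them. Igkv1-117, Igkv1-110, Igkv8-24, Igkv16-104, Igkv9-120 and Igkv17-127 had log2 fold changes between -0.45 and -0.04 and did not pass either. The exceptions were Igkv14-111 and Igkv12-46.

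Igkv14-111 stood at 153, 232 and 153 CPM in WT and at 119, 125 and 116 CPM in depleted libraries. All depleted values lay below all WT values, also when WT replicate 2 is set aside. Its log2 fold change was -0.58 ± 0.15 (SE, edgeR adjusted p = 0.00576), and -0.35 without WT replicate 2 (adjusted p = 0.00439). Igkv12-46 stood at 142, 239 and 151 CPM in WT and at 126, 119 and 114 CPM in depleted libraries, again with no overlap (log2 fold change -0.56 ± 0.18, adjusted p = 0.0238). This call was lost without WT replicate 3 or any 1 depleted library, with adjusted p-values between 0.0538 and 0.074, at log2 fold changes of -0.53 to -0.67, and with library totals (-0.41, adjusted p = 0.075). It was called at a smaller size, -0.29, without WT replicate 2 (adjusted p = 0.015).

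The rows that fell most were of low or middle abundance. Igkv4-92 had 119, 114 and 87 counts in WT and 25, 28 and 37 counts in depleted libraries, or 5.01, 5.18 and 3.58 CPM against 1.40, 1.31 and 1.60 CPM. Its lowest WT value was above its highest depleted value with a wide gap, and WT replicate 2 did not stand apart. It was 3.18-fold lower (log2 fold change -1.67 ± 0.22, edgeR adjusted p = 1.37e-05). Igkv12-89 stood at 20.5, 38.6 and 27.8 CPM in WT and at 13.2, 10.3 and 9.65 CPM in depleted libraries, 2.63-fold lower (adjusted p = 0.00066). Igkv6-14 stood at 7.58, 8.63 and 5.02 CPM in WT and at 2.46, 3.04 and 2.55 CPM in depleted libraries, 2.62-fold lower (adjusted p = 4.69e-05). In both, the groups were apart in every library.

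Igkv5-45 had 78, 114 and 71 counts in WT and 41, 21 and 34 counts in depleted libraries, with a log2 fold change of -1.28 ± 0.30 (edgeR adjusted p = 0.00229). Igkv4-70 had 88, 140 and 107 counts in WT and 44, 37 and 43 in depleted libraries, with a log2 fold change of -1.26 ± 0.24 (adjusted p = 0.000303). Neither overlapped between groups. These 5 rows belong to 4 families. They were chosen as the largest falls, so that other rows of those families moved less follows from the choice. As an example of the sizes, Igkv12-46 fell 1.48-fold where Igkv12-89 fell 2.63-fold.

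The 97 rows fall into 19 V families, from Igkv4 with 26 rows to 7 families with 1 row. Summed by family, 11 families were lower in depleted cells, 0 were higher by edgeR (0 at an unadjusted p under 0.05) and 8 did not pass, beside 30.7% lower and 31.9% higher in the whole table with family sums. The lower families were Igkv2, Igkv3, Igkv4, Igkv5, Igkv6, Igkv7, Igkv11, Igkv12, Igkv13, Igkv14 and Igkv19. Of these, Igkv4, Igkv6, Igkv13 and Igkv14 were called also with library totals alone and with each library left out, and the other 7 lost their call in at least 1 of these settings. Without depleted replicate 2 there were 7 lower families, without depleted replicate 3 there were 5, and with library totals 4. Family Igkv4 stood at 175, 304 and 227 CPM in WT and at 133, 122 and 134 CPM in depleted libraries. No depleted library came near the lowest WT library. The family was 1.81-fold lower (log2 fold change -0.86 ± 0.17 SE, adjusted p = 0.00173). Family Igkv6 stood at 338, 533 and 328 CPM in WT and at 259, 218 and 243 CPM in depleted libraries, without overlap, 1.66-fold lower (log2 fold change -0.74, adjusted p = 0.00632). Without WT replicate 2, Igkv6 was at -0.48 (adjusted p = 0.000805) and Igkv4 at -0.64 (adjusted p = 0.000274). In that fit 9 of the 11 families were called lower, and the 11 lay between -0.92 for Igkv7 and -0.23 for Igkv3, with Igkv3 and Igkv11 not called.

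The 3 families with the most counts, Igkv1, Igkv10 and Igkv8, did not pass the test, and the next 5 by WT share, Igkv6, Igkv12, Igkv5, Igkv14 and Igkv4, were all called lower. Igkv1, the largest by counts, had a log2 fold change of -0.32 ± 0.21 (SE, edgeR adjusted p = 0.232). Igkv10, the second largest, stood at 645, 920 and 593 CPM in WT and at 674, 591 and 655 CPM in depleted libraries. Its groups overlapped, with a log2 fold change of -0.17 ± 0.14 (adjusted p = 0.325). Igkv9 and Igkv17 were at -0.17 and -0.15, and Igkv8 at -0.35 (adjusted p = 0.0616), and none of these passed. The directions of Igkv1, Igkv9, Igkv10 and Igkv17 turned when WT replicate 2 was left out, to values between 0.0074 and 0.056.

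Family shares, which need no scaling between libraries, moved apart between the groups. Igkv4 took 4.10%, 4.45% and 5.28% of Igkv counts in WT and 3.31%, 3.25% and 3.47% in depleted libraries, a mean of 4.61% ± 0.61 against 3.34% ± 0.12 (SD, n = 3 each). Igkv6 took 7.90%, 7.79% and 7.62% in WT and 6.44%, 5.82% and 6.28% in depleted libraries, a difference of -1.59 percentage points. For both families the shares of the depleted libraries lay below all WT shares, and WT replicate 2 was in the middle of its group. Igkv2, Igkv13, Igkv14 and Igkv19 also took a smaller share in every depleted library than in any WT library.

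The families that gained share were Igkv10, Igkv1, Igkv9 and Igkv17. Igkv10 took 15.1%, 13.4% and 13.8% in WT and 16.8%, 15.8% and 16.9% in depleted libraries, a difference of 2.39 percentage points. Igkv9 went from 3.73% ± 0.12 to 4.38% ± 0.16 and Igkv17 from 4.22% ± 0.33 to 4.96% ± 0.08. Igkv1 took 21.5%, 24.3% and 22.3% in WT and 24.3%, 24.6% and 24.4% in depleted libraries, so that WT replicate 2 came close to the depleted group. For each of these 10 families the groups did not overlap. As a measure of the background, 8.30% of all tested rows, set against the Igkv total of their library, were below in all depleted libraries and 44.7% were above. The Igkv total was itself lower after TMM scaling (log2 fold change -0.41), which lifts other rows on this scale. Such background shares are thus not centred as the Igkv values are, here and wherever the Igkv total or Igkc is the divisor. The exact permutation test gave p = 0.1 for each of the 10, the smallest that 3 against 3 libraries can give, so none could pass 0.05. Igkv5 took 5.31%, 6.01% and 5.70% in WT against 3.85%, 5.42% and 4.26%, where depleted replicate 2 overlapped the WT range.

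**Figure D2:**
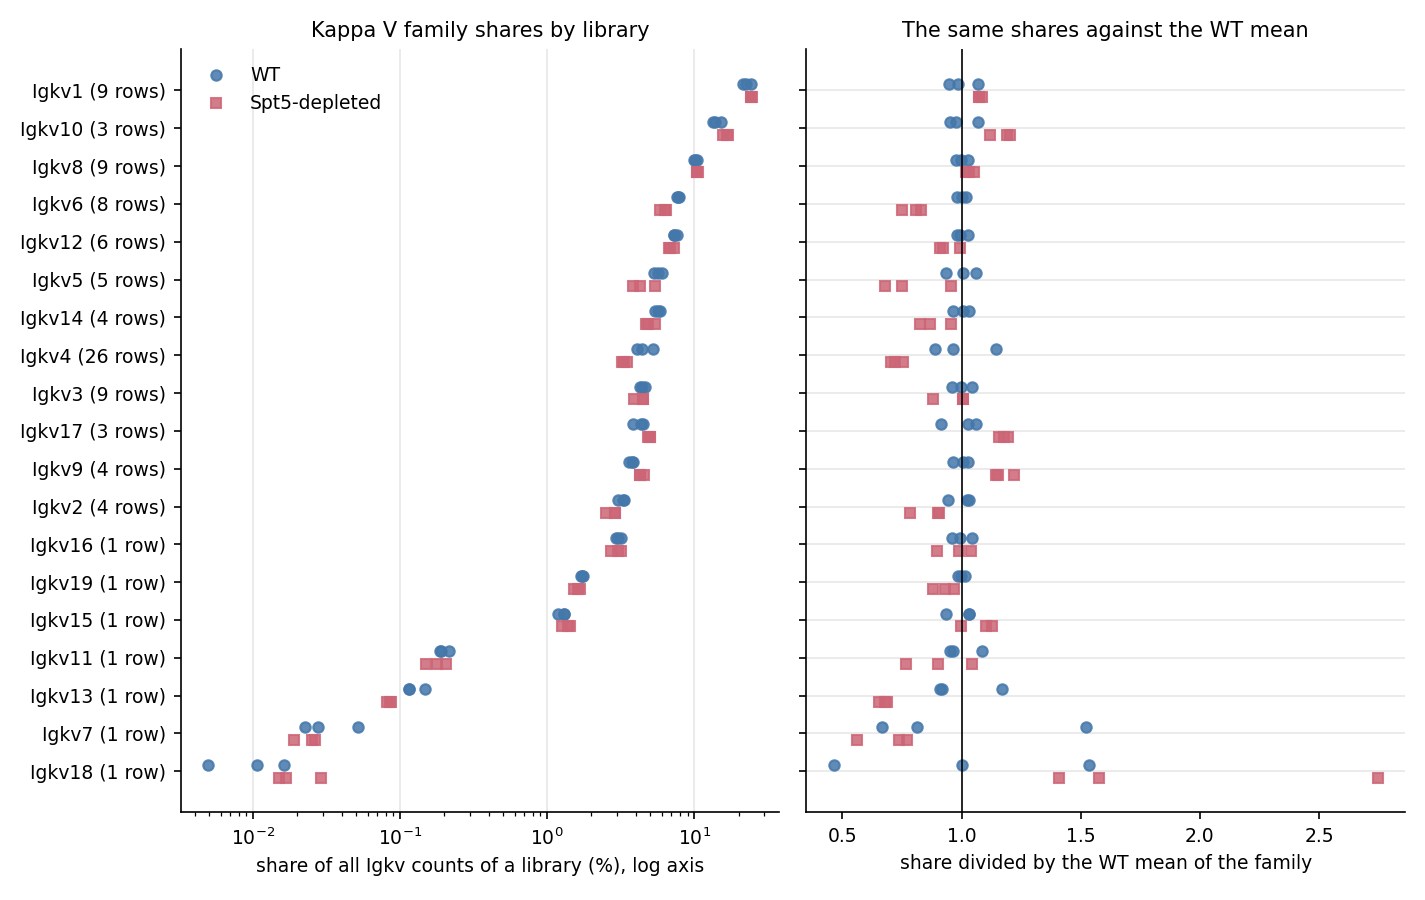
Share of each V family in the Igkv counts of a library (left, percent on a log axis) and the same share divided by the WT mean of the family (right, linear axis), 1 point per library. Families Igkv4, Igkv6, Igkv13 and Igkv14 lie left of all WT libraries on the right-hand panel and Igkv10, Igkv9 and Igkv17 lie right of them; Igkv7 and Igkv18 rest on few counts and scatter widely.

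A model fitted to the counts with the Igkv total of each library as its size asked the same of families and rows. Against the Igkv total 0 of 19 families were called in either direction by edgeR, and 0 had an unadjusted p under 0.05 in either direction. Of all features tested there, 6.81% were called lower and 31.3% higher. Family Igkv4 had a log2 difference of -0.46 (adjusted p = 0.173) and Igkv6 of -0.33 (adjusted p = 0.35). Without WT replicate 2 both were called lower, Igkv4 at -0.49 (adjusted p = 0.000856) and Igkv6 at -0.33 (adjusted p = 0.00849). The sizes were thus nearly the same with and without that library, and the calls were not. With all 6 libraries the SE of both families in this fit was 0.27, beside 0.17 and 0.18 in the TMM fit. It was also 0.27 for Igkv1, Igkv8 and Igkv10. The fit estimates spread with the help of all rows of the table, each set against the Igkv total. Its SE and p-values thus do not measure the spread of a family's shares alone. Differences of the size seen for Igkv4 and Igkv6 could therefore not be resolved by this fit, and the lack of calls does not show equal shares. Against Igkc, 0 families were called in either direction (1 lower and 1 higher at an unadjusted p under 0.05), beside 7.06% lower and 36.5% higher in the whole table. The SE of Igkv4 and Igkv6 there was 0.25, so the same limit holds.

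Of the 93 tested rows, 8 were lower against the Igkv total and 0 higher by edgeR, with 13 lower and 2 higher at an unadjusted p under 0.05. Over all rows tested, 6.84% were called lower and 31.1% higher on that scale. The 8 of 93 called lower lie close to that general share. The fall of the Igkv total lifts the other rows on this scale, however, so the share is not a matched background for Igkv rows. The 8 rows were Igkv4-92, Igkv6-14, Igkv12-89, Igkv5-45 and Igkv4-70, described above, with Igkv4-57-1, Igkv4-72 and Igkv8-21, which were chosen for naming after their values were seen. Igkv8-21, the most abundant of the 8, stood at 49.4, 63.8 and 48.1 CPM in WT and at 20.0, 28.2 and 23.1 CPM in depleted libraries. Its groups were well apart, and it lay -0.80 ± 0.27 (log2, SE) below the movement of the Igkv total (adjusted p = 0.0104). Without depleted replicate 1, 2 or 3 the number of rows called lower was 3, 4 and 4. In shares of the Igkv total, 36 tested rows were lower and 11 higher in every depleted library than in any WT library. Of all tested rows on that scale, 8.3% were lower and 44.7% higher in this way.

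Without WT replicate 2, 20 rows were lower against the Igkv total and 5 higher, and the 8 rows were among the 20. The 5 higher rows were Igkv10-94, Igkv10-95, Igkv17-127, Igkv9-120 and Igkv1-110. Igkv10-94, named after its values were seen, stood at 101, 137 and 79.2 CPM in WT and at 125, 107 and 130 CPM in depleted libraries. These groups overlapped on the CPM scale (log2 fold change 0.19, adjusted p = 0.379, and 0.41 without WT replicate 2), and against the Igkv total every depleted library was above every WT library.

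**Figure D3:**
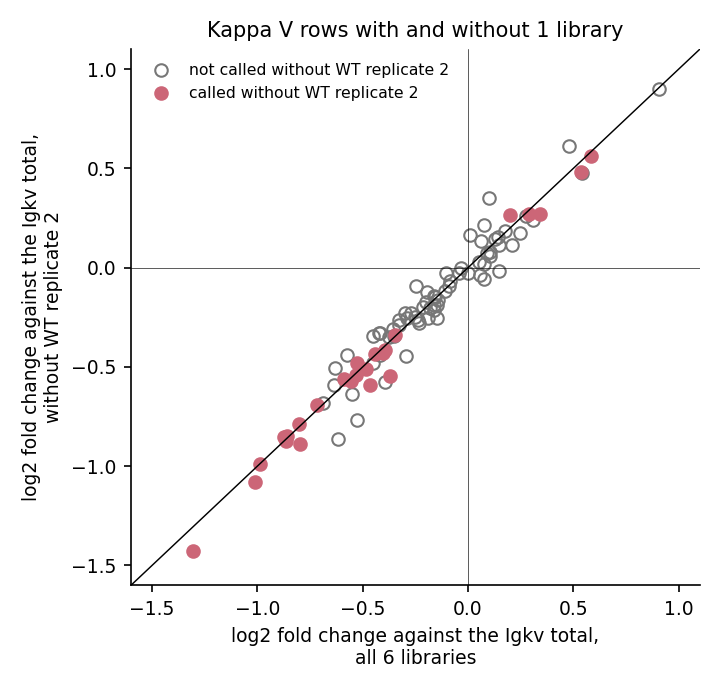
Log2 difference of each of the 93 tested Igkv rows against the Igkv total, depleted minus WT, with all 6 libraries (x axis) and with WT replicate 2 left out (y axis). Filled points are the 25 rows called without that library, 20 lower and 5 higher; the points lie close to the line of equal values, drawn through 0.

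The kappa V RNA of depleted cells was concentrated on fewer segments in each depleted library than in any WT library. The inverse Simpson number, which gives how many equally used rows would give the same concentration of counts, was 23.5, 23.1 and 24.0 in WT and 20.5, 21.1 and 20.6 in depleted libraries. All depleted values were below all WT values, and WT replicate 2 was the lowest of its group. The difference was -2.83 (exact permutation test, p = 0.1, the smallest possible, and 0.125 after adjustment over 5 measures). The number of rows that hold 90% of Igkv counts was 38, 38 and 40 in WT and 35 in each depleted library. The 48 rows of lowest abundance held 5.25%, 5.29% and 5.59% in WT and 4.56%, 4.28% and 4.46% in depleted libraries. The segments themselves were detected alike, with 96 or 97 rows above 0 counts in each library.

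The order of the segments by abundance was much alike in all libraries. Spearman's rho between libraries over the 97 rows was 0.991 to 0.994 within groups and 0.986 to 0.990 between them, as a description across rows that share their libraries. The Bray-Curtis distance of the row shares, which is the percentage of counts that would have to move to another row, was 3.95 to 5.07 within WT, 3.0 to 4.74 within depleted libraries and 6.69 to 8.75 between groups. All 9 distances between groups were above all 6 within groups.

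The median fall was larger among rows of lower abundance. Across the 93 tested rows, Spearman's rho between the log2 fold change and the mean CPM was 0.40, which is a description, since both come from the same libraries. Of the 47 more abundant rows 25 were called lower, with a median of -0.52, and of the 46 less abundant rows 28, with a median of -0.77. Among all tested rows 30.6% were called lower, which also applies to the counts by family and range that follow. Family Igkv4 is the largest by rows, and its members are of low abundance, between 0.465 and 19.2 CPM on average. All 25 of its tested rows were below 0, from -1.67 to -0.56, with a median of -0.83, and 19 were called lower. Of the 26 rows of other families in that range of abundance 14 were called lower, with a median of -0.55. For the 42 rows above it, 20 were called, with a median of -0.49. The 5065 tested rows of the whole table in the same range had a median of 0.06. Against the Igkv total the 25 rows of family Igkv4 were again all below 0. Of these, 4 were called, beside 6.84% of all tested rows called lower in that fit, or 9 without WT replicate 2.

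**Figure D4:**
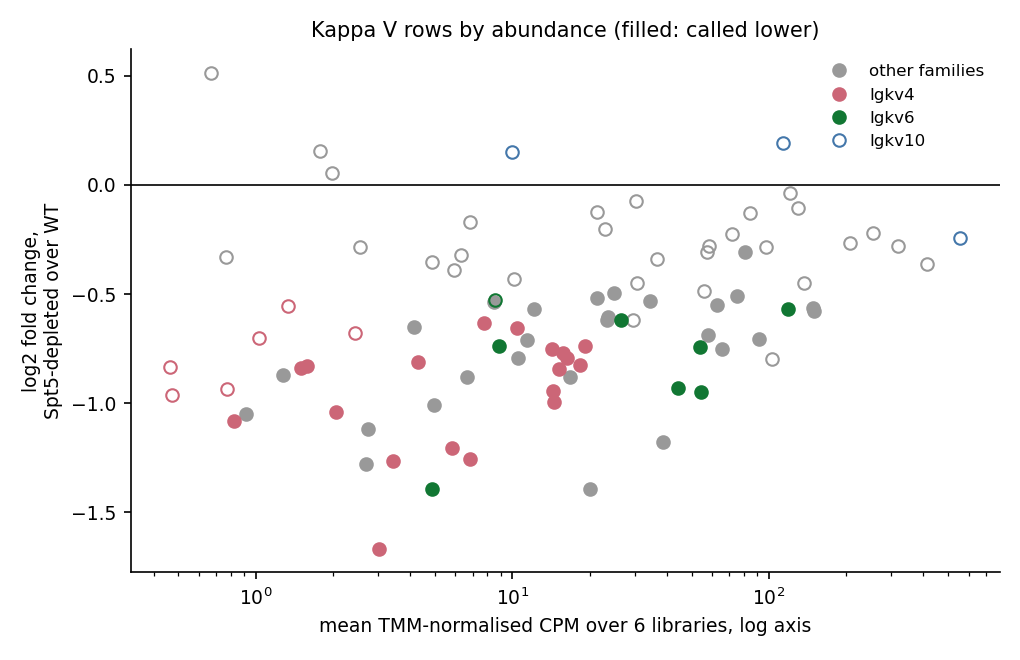
Log2 fold change of the 93 tested Igkv rows, depleted minus WT, against their mean TMM-normalised CPM over 6 libraries (log axis). Filled points were called at an adjusted p under 0.05 and open points were not; the 25 rows of family Igkv4 all lie below 0 and left of 19.2 CPM, and the most abundant rows lie closer to 0.

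The second number in a segment's name falls toward the joining segments, so the names give the order of the locus, and the order of the RefSeq annotation of another build matched it. The 93 rows were divided into 4 blocks along that order. The block farthest from the joining segments, from Igkv2-137 to Igkv14-100, moved least: 9 of 24 rows were called lower, with a median of -0.34. The next block, Igkv1-99 to Igkv4-68, had 14 of 23 called lower and a median of -0.83, and the block from Igkv4-63 to Igkv6-32 had 17 of 23 and a median of -0.75. In the block nearest the joining segments, Igkv8-30 to Igkv3-1, 13 of 23 were called, with a median of -0.62. Among all tested rows 30.6% were called lower, the share to set beside the count of each block. Against the Igkv total the medians were 0.058, -0.42, -0.35 and -0.20 in the same order, and 10, 18, 20 and 16 rows were below 0.

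The rows of family Igkv4 all lie in the middle blocks, 14 in one and 11 in the other. Without them, 21 rows of those blocks were left. Of these, 12 were called lower, beside 30.6% of all tested rows, with a median of -0.52. Position and family are thus joined in this locus. The blocks also differ in abundance, with a median of 33.7 CPM in the farthest block and 5.83 CPM in the next. The part of abundance in the difference between blocks was not tested.

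**Figure D5:**
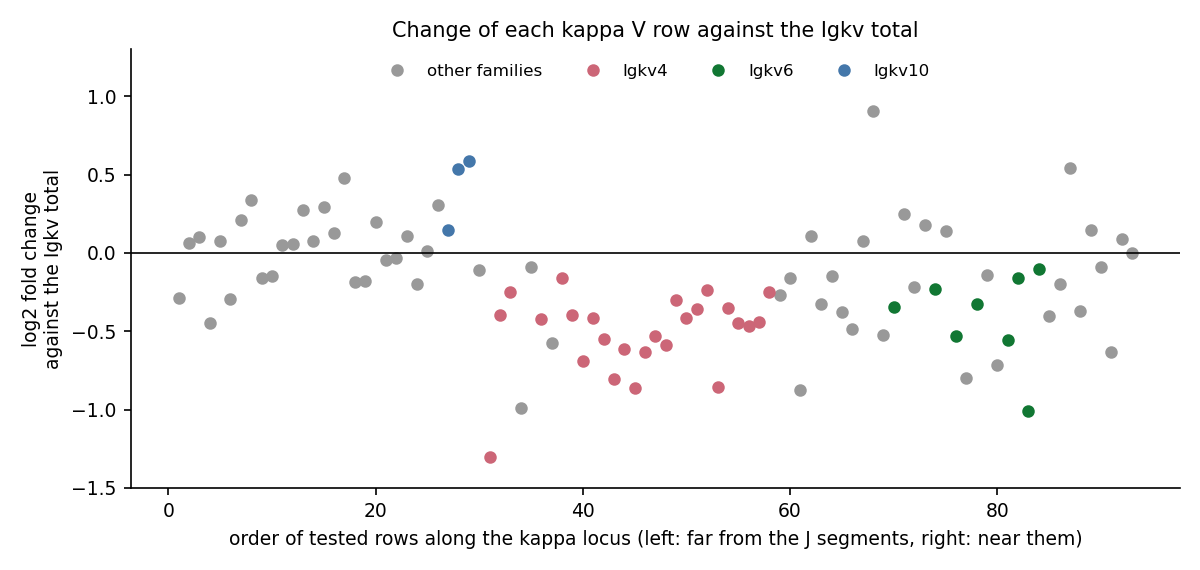
Log2 difference of each of the 93 tested Igkv rows against the Igkv total, depleted minus WT, in the order of the segments along the locus. The order runs from the segment farthest from the joining segments to the nearest. The median of the farthest block, 0.058, lies nearer to 0 than those of the middle blocks, -0.42 and -0.35, where all rows of family Igkv4 lie.

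In RefSeq, 93 of the 97 rows are V segments and 4 are V pseudogenes: Igkv14-126, Igkv2-116, Igkv17-134 and Igkv4-56. Of the pseudogene rows 1, Igkv14-126, was called lower, beside 30.6% of all tested rows. The 4 rows together held 1.14% to 1.71% of Igkv counts, with overlapping groups.

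The rest of the kappa locus holds Igkc and the joining segments. Igkj1, Igkj2 and Igkj5 had few counts and did not pass (log2 fold changes of -0.57, -0.48 and 0.46), and Igkj3 and Igkj4 had too few counts to be tested. Of 5 tested rows of the lambda locus, which encodes the other light chain, 2 were called lower: Iglc3 fell by 0.98 and Iglc2 by 0.66 on the log2 scale. When WT replicate 2 was left out these values were -0.81 and -0.34 (adjusted p = 3.11e-05 and 0.023), with 3 lambda rows lower and 1 higher. Over all tested rows 30.6% were lower and 31.8% higher, or 28.6% and 29.8% without WT replicate 2. The ratio of Igkc to the sum of Iglc2 and Iglc3 was 8.74, 8.07 and 8.72 in WT and 10.7, 12.1 and 9.90 in depleted libraries. All depleted ratios were above all WT ratios (exact permutation test, p = 0.1, the smallest possible, and 0.2 after adjustment over 4 ratios).

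The median fall was larger among heavy chain V segments than among kappa V segments. Of 82 tested Ighv rows 65 were lower and 0 higher, with a median log2 fold change of -1.15, beside 30.6% lower and 31.8% higher among all tested rows. These numbers were 55 and 0 without WT replicate 2, with a median of -0.74, beside 28.6% lower and 29.8% higher among all rows tested then. The ratio of summed Ighv to summed Igkv counts was 0.167, 0.230 and 0.192 in WT and 0.110, 0.118 and 0.137 in depleted libraries. The groups did not overlap, and WT replicate 2 was the highest of its group (difference of -0.68 on the log2 scale, exact permutation test, p = 0.1, the smallest possible, and 0.2 after adjustment over 4 ratios). Of 8 tested heavy constant rows 5 were lower and 1 higher, with and without WT replicate 2. Ighg1 and Ighe, the constant regions reached by class switching under IL4, fell by 3.36 and 2.39 on the log2 scale. Ighd, the constant region of IgD, rose by 0.95.

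Of 27 factors with a known part in kappa transcription or in the folding of the locus, all tested, 12 were lower and 6 higher, beside 30.6% and 31.8% of all tested rows. The counts were 11 and 4 without WT replicate 2, beside 28.6% and 29.8% of all rows tested then. The 4 with the smallest p were Nfkb1 and Irf8, which fell by 1.64 and 1.52 on the log2 scale, Spib, which rose by 1.15, and Pou2af1, the coactivator at the octamer element of V promoters, which fell by 1.08. Spib encodes a partner of the IRF factors at the kappa enhancers. Ctcf and the cohesin genes Rad21, Smc1a and Smc3, which shape the locus before joining, were all among the lower ones. Yy1 and Pax5, of the same list, did not pass (log2 fold changes of 0.030 and -0.017). These genes are named here after their values were seen. Of 9 tested genes of V(D)J recombination 5 were lower and 3 higher, again beside 30.6% and 31.8%. Hmgb1, which bends DNA at recombination signals, fell by 0.81, and Xrcc5, the larger Ku subunit, rose by 0.77. Rag1 and Rag2 have no row in the table used here.

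The level of immunoglobulin RNA is far higher in plasma cells than in other B cells, so their markers are given beside these results. Of 9 tested plasma cell markers 4 were lower (Creld2, Slamf7, Mzb1 and Xbp1, by 1.25, 0.74, 0.80 and 0.70 on the log2 scale) and 2 higher (Sdc1 by 0.64 and Irf4 by 0.37). The shares over all tested rows, 30.6% lower and 31.8% higher, apply to every marker count here with all 6 libraries. Without WT replicate 2 these shares were 28.6% and 29.8%. With WT replicate 2 left out, 4 were lower and 3 higher, Igj, the joining chain of secreted antibodies, being added at 0.28 (adjusted p = 0.0217). Their summed level was 4276 to 5801 CPM in WT and 3275 to 3497 CPM in depleted libraries, and no measured marker was at 0. The part of plasma cells in the change of kappa V RNA was not tested. Mzb1 is also the 1 of 5 tested receptor partners and secretion factors that was called, while Cd79a, Cd79b, Igj and Vpreb3 were not. Summed T cell markers were at 39.4 to 42.1 CPM in WT and 17.3 to 35.5 CPM in depleted libraries, with 1 of 7 lower. Macrophage and monocyte markers were at 23.5 to 32.1 and 28.0 to 62.8 CPM, with 4 of 6 higher. NK cell markers were at 10.2 to 16.1 and 5.53 to 10.4 CPM, with 1 of 2 tested lower, dendritic cell markers at 84.6 to 98.9 and 89.5 to 91.4 CPM, with 1 of 2 tested higher, and the red cell marker Alas2 at no more than 0.389 CPM.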

How the data were processed

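The table held whole read counts per gene for 3 WT and 3 Spt5-depleted RNA-seq libraries, as the authors deposited them and without normalisation; 18 samples of other assays were not analysed here. Per the labels' protocols, poly(A) RNA was extracted with Trizol and made into libraries with a Lexogen SENSE mRNA-seq kit. The submitters' processing notes name the build mm9, featureCounts 1.5.0-p1, DESeq2 1.10.1, TopHat, Bowtie2 2.1.0 and cutadapt 1.10, with no order or role. How strand, annotation and reads with several matches were handled is not given in the sources used, and for similar V segments these can shift counts between rows or lose them. Fold changes on a log2 scale and adjusted p-values of the authors are in the deposited table too, and were used only where the deposited table is named. No row of it sums to fewer than 10 counts, so rarer segments are absent from it. All Igkv rows carry a suffix to their name, which was removed.

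The main analysis used edgeR 4.0.16 under R 4.3.3 (filterByExpr, which left 12024 rows, TMM scaling, and the robust quasi-likelihood F test, two-sided, with Benjamini-Hochberg adjustment over all tested rows and a threshold of 0.05). Fits were made on the whole table with single rows, with family sums, with 1 Igkv sum, and with the Igkv total or Igkc as library size. TMM factors were 0.949, 0.943 and 0.947 in WT and 1.035, 1.057 and 1.078 in depleted libraries, and the biological coefficient of variation was 0.098. Ratios, shares and evenness were compared by exact permutation over the 20 splits. Alternatives used DESeq2 1.42.0, limma 3.58.1, other scalings and filters, a replicate block and each library left out. The scripts were tested on simulated data. Within groups, replicates differed beyond sampling noise (chi-square per degree of freedom 6.46 to 33.2).

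Rows named are the 10 most abundant, the 5 largest falls among called rows without overlap, all family sums, and up to 4 members of each list by the smallest p; others are marked. One gene that this rule names is not reported here. The members and lists were chosen with earlier results of these data known. Order along the locus and segment type came from RefSeq (GRCm38.p6), in which all 97 rows matched by name; that build differs from the files', so no coordinates are given. No sequences are shown.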

Additional observations from a re-analysis of the deposited data

How the results depend on the processing

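The direction of the 5 rows with the largest falls, of families Igkv4 and Igkv6, of the median over rows and of the evenness was the same under all alternatives run, and families Igkv4 and Igkv6 passed the test in each of them but the 2-fold minimum. With library totals alone 35 rows and 4 families were lower and the Igkv total was at -0.24. An adjusted p under 0.01 left 29 rows and 4 families, and a 2-fold minimum 13 rows and 1 family. The Igkv total was at -0.40 with upper-quartile factors (adjusted p = 0.0568), at -0.40 with a mean of at least 5 CPM (adjusted p = 0.0534) and at -0.41 with DESeq2's Wald test (adjusted p = 0.128), and passed with limma-voom (-0.37, adjusted p = 0.0394). Leaving out 1 library at a time gave 39 to 59 lower and 0 to 1 higher rows, 5 to 14 lower families and an Igkv total of -0.53 to -0.15. Relative to the Igkv total it gave 3 to 20 lower and 0 to 5 higher rows, and 0 to 2 lower and 0 to 1 higher families. Relative to Igkc it gave 0 to 1 lower and 0 to 1 higher families, and limma-voom gave 1 higher. The cause was not tested.

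An alternative chosen after the data were seen combined library totals with WT replicate 2 left out. It gave 19 lower and 5 higher rows and 2 lower families, Igkv4 and Igkv6. Under it these values turned to above 0: the Igkv total (0.013), Igkv10-96 (0.13), Igkv1-135 (0.15), Igkv1-117 (0.16), Igkv1-110 (0.28), Igkv8-24 (0.17), Igkv16-104 and family Igkv16 (0.0097 each), Igkv9-120 (0.29), Igkv17-127 (0.29), and families Igkv1 (0.17), Igkv17 (0.18), Igkv9 (0.22), Igkv15 (0.071), Igkv10 (0.21) and Igkv8 (0.045). With WT replicate 2 left out alone, Igkv1-110 (0.12), Igkv8-24 (0.0077), Igkv9-120 (0.13), Igkv17-127 (0.12) and families Igkv1 (0.0074), Igkv17 (0.021), Igkv9 (0.056) and Igkv10 (0.043) turned. Their lowest values with another single library left out were -0.39, -0.40, -0.22 and -0.13 for these rows in turn and -0.47, -0.25, -0.28 and -0.30 for these families. With library totals alone Igkv9-120 (0.055), Igkv17-127 (0.12) and family Igkv17 (0.012) turned. None of these had passed the test with all libraries but the Igkv total.

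With the replicate block 56 rows and 14 families were lower, 7 rows were lower relative to the Igkv total, and the Igkv total was at -0.37 (adjusted p = 0.029). Same-numbered libraries did not deviate together (correlations of 0.038, -0.040 and -0.0050), so the numbers are not taken to pair them. A planned fit without rows whose name carries a suffix was not run, since 0 Igkv rows would be left. The 4 untested rows had too few counts for the filter, so a change in them was not assessed in the main fit.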
